A study of Mus musculus with 9 samples.

Results

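The comparison set 3 arrays of dark-reared mice directly against 3 arrays of monocularly deprived mice, 6 of the 9 arrays of a study of microRNAs (miRNAs) in mouse primary visual cortex. The dark-reared C57BL6 mice were kept without light from birth until postnatal day 28. The monocularly deprived C57BL6 mice had a normal light cycle until postnatal day 24, when 1 eyelid was sutured for 4 days, and visual cortex contralateral to that eye was collected on postnatal day 28. The 3 control arrays held cortex of undeprived C57BL6 mice of the same age, and they enter here for the spread between arrays and as a further level. Per the labels, 100 ng of total RNA was labelled with Cy3 for each array. Nothing in the labels tells if each replicate was 1 animal or a pool, and the p-values speak only of the spread from array to array, part or all of which may be technical. The groups differ in the number of eyes deprived, the length of deprivation and its onset at once, so these cannot be told apart.

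The dark-reared and control arrays lay on slide 1 and were scanned together, and the 3 monocularly deprived arrays lay alone on slide 2 of another scan. Slide and group cannot be told apart in any difference given here. The slides differed in a measure that does not depend on the samples: the bright corner control spots had median intensities of 8936 to 11410 units on the dark-reared arrays, 476 to 731 on the monocularly deprived arrays and 11166 to 15252 on the control arrays. The part of slide in the differences was not tested. For this reason the 318 mouse miRNA names that could be tested, of 611 on the array, were separated into 241 with a probe well above background on all 6 arrays (bright names) and 77 dimmer names. Mouse names called detected numbered 305 to 359 on the dark-reared arrays, 297 to 317 on the monocularly deprived arrays and 310 to 333 on the control arrays. Log2 levels of arrays of 1 group correlated at r = 0.972 to 0.988 among dark-reared and r = 0.993 to 0.999 among monocularly deprived arrays across names, which are not independent replicates.

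A mature miRNA is cut from a hairpin precursor, guides a silencing complex to messenger RNAs, and recognises them mainly through its seed near the 5′ end. Both strands of a hairpin can be kept, usually in unequal amounts, and the minor one carries an asterisk or an arm suffix in the names. In visual cortex, miR-132 and miR-212 are known as miRNAs whose transcription follows neuronal activity through the factor CREB, and miR-132 has been linked to dendritic spines and to ocular dominance plasticity.

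Of the 318 tested names, 261 matched a mature sequence of RefSeq (GRCm38.p6). The sequences are written 5′ to 3′ with the seed, bases 2 to 8, in capitals. The first pair is shown because both miRNAs come from 1 locus of chromosome 11 (plus strand, hairpins at chr11:75173388-75173478 and chr11:75173682-75173747) and share the seed AACAGUC, yet were called in opposite directions.
miR-132: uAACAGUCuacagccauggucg
miR-212: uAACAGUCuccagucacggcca
The next are the 7 with a matched sequence among the 8 higher bright calls of largest difference, the eighth being miR-466f-3p. The last 4 of them are built of short repeated units, U and G in miR-574-5p and miR-1187, A and C in miR-466i and miR-467f.
miR-690: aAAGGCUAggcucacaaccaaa
miR-135a: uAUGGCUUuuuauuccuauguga
miR-125a-3p: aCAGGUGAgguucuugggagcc
miR-574-5p: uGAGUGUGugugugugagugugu
miR-1187: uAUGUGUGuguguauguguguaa
miR-466i: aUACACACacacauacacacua
miR-467f: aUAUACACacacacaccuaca
Bright names that were lower in dark-reared cortex follow. Of these, miR-20a and miR-93 share the seed AAAGUGC.
miR-219: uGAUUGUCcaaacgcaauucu
miR-411: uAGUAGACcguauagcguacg
miR-337-3p: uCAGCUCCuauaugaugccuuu
miR-20a: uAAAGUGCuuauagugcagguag
miR-93: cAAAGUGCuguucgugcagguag
miR-99a: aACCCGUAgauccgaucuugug
Both miR-22 strands are shown as the bright hairpin whose strands were called in the same direction, and the miR-221 and miR-222 pair as neighbours with the shared seed GCUACAU of which 1 was called.
miR-22: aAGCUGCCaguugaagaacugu
miR-22*: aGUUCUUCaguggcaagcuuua
miR-221: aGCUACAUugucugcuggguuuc
miR-222: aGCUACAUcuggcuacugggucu

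A level is the log2 of the signal over its array's 75th percentile, which was taken over 433 probes well above background on all 9 arrays. Differences are dark-reared minus monocularly deprived. At an adjusted p under 0.05 in limma (linear models with moderated variances, Benjamini-Hochberg adjustment over all 318 names), 91 names were called, 28.6% of those tested. Of them 60 (18.9%) were higher and 31 (9.75%) lower in dark-reared cortex. Of the 77 dimmer names, 38 (49.4%) were called, 31 (40.3%) higher and 7 (9.09%) lower. Of the 241 bright names, 53 (22%) were called, 29 (12%) higher and 24 (9.96%) lower. Differences of bright names were small, with 227 of 241 within 2-fold in either direction, a median of -0.08 and 43 of the called bright names within 2-fold. A total of 35 called names were over 2-fold higher, 10 of them bright, and 0 were over 2-fold lower. The control arrays, which shared the slide of the dark-reared arrays, were on the same side: for 57 of the 60 higher calls all 3 control arrays lay above all 3 monocularly deprived arrays, and for 29 of the 31 lower calls they lay below. These counts use the monocularly deprived levels that made the calls, and the share over all 318 names was not taken. Between dark-reared and monocularly deprived arrays, 46.5% of all 318 names (148) did not overlap.

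The counts depended on how arrays were put on a common scale. With the 75th percentile of all miRNA probes, 35 names were higher and 212 lower, and the median of all names was -0.70 in place of -0.03. With quantile normalization 35 were higher and 65 lower (median -0.12), and without scaling 37 were higher and 0 lower (52 names at an unadjusted p under 0.05, median -0.02). With normexp background correction in place of the scanner software's, 1 name was called, miR-690, with 21 at an unadjusted p under 0.05. With the spots of bright local background also left out, which was added once the data had been seen, 3 were called, miR-690, miR-212 and miR-30c. Without monocularly deprived replicate 1, 40 names were higher and 9 lower, and without dark-reared replicate 1, 46 and 8. Without dark-reared replicate 2 and without monocularly deprived replicate 3, the split was 42 to 21 in each case, and without control replicate 2 it was 51 to 20.

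**Figure D1:**
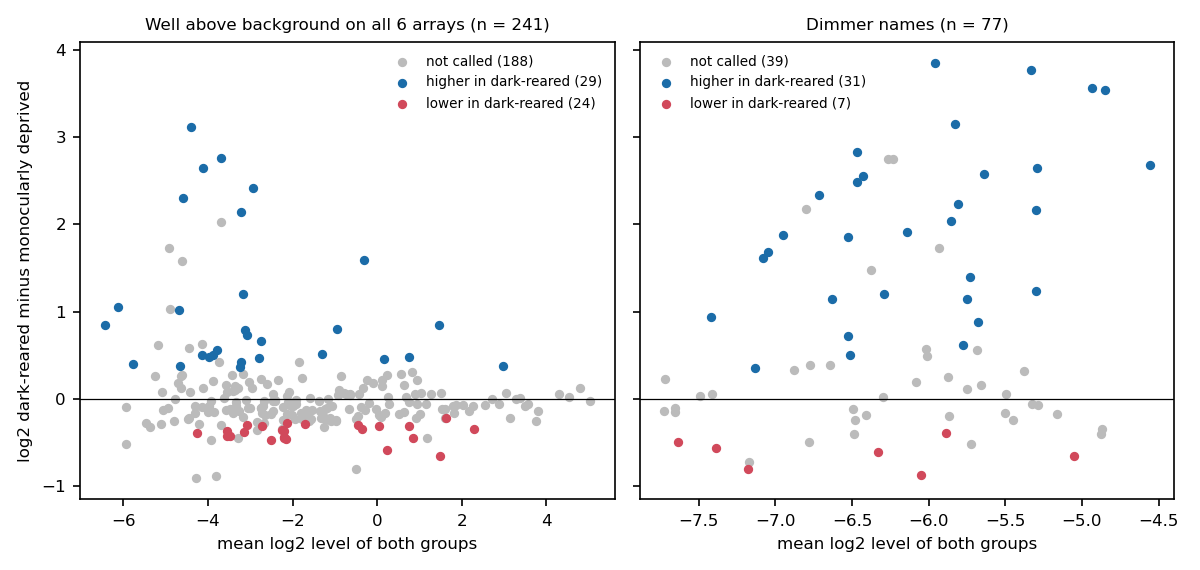
Log2 difference, dark-reared minus monocularly deprived, against the mean log2 level of both groups for the 241 bright names (left) and the 77 dimmer names (right); each point is 1 miRNA name, coloured by its limma call. Most bright names lie within 1 log2 unit of 0, and the called dimmer names lie mostly above 0.

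miR-132 was lower and its neighbour miR-212 higher in dark-reared cortex. miR-132 had log2 levels of 1.05, 1.28 and 1.15 on the dark-reared arrays, 1.75, 2.21 and 1.49 on the monocularly deprived arrays and 2.33, 2.41 and 2.25 on the control arrays. The dark-reared arrays were lowest, the control arrays highest, and the 3 groups did not overlap. The difference was -0.66 (SE 0.17, limma adjusted p = 0.0249), 1.58-fold lower. miR-212 had levels of -0.54, -0.37 and -0.71 on the dark-reared arrays, -1.33, -1.26 and -1.45 on the monocularly deprived arrays and -0.11, 0.02 and -0.17 on the control arrays. Here the monocularly deprived arrays were lowest, again with no overlap, and the difference was 0.80 (SE 0.11, limma adjusted p = 0.000879), 1.75-fold higher. In bulk tissue, fewer cells of a type and less RNA per cell cannot be told apart.

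Both probes of each miRNA went the same way: -0.70 and -0.56 for miR-132, and 0.99 and 0.71 for miR-212. Within an array the scaling cancels, and the change in the log2 ratio of miR-212 to miR-132 was 1.46, with SDs of 0.14 over the dark-reared and 0.28 over the monocularly deprived arrays (n = 3 each). The groups did not overlap in this ratio, and the exact two-sided permutation p was 0.1, the smallest that 3 against 3 arrays allow (adjusted p = 0.22 over 33 pairs of miRNAs). The single calls were less firm. miR-132 was not called without dark-reared replicate 1 (-0.60, adjusted p = 0.0781), without monocularly deprived replicate 1 (-0.69, 0.0609), in the 6 arrays fitted alone (adjusted p = 0.0531), without a filter (0.0727), without scaling or with normexp. miR-212 was called in each fit that left out 1 array, and its difference was 0.12 (adjusted p = 0.547) when all miRNA probes set the scale, where the median of all names was -0.70. It was also not called without scaling (0.81, adjusted p = 0.289) or with normexp (0.72, 0.187).

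Of the 9 activity-regulated miRNAs, 2 were higher, miR-212 and miR-134, 2 were lower, miR-132 and miR-329, and 5 were not called. Over all names 28.6% were called. The median difference of the 9 was -0.10, beside -0.03 over all names. miR-134, which is known to limit dendritic spine size, was a dimmer name with levels of -6.11, -6.10 and -5.97 on the dark-reared and -6.83, -7.66 and -7.11 on the monocularly deprived arrays. Its difference was 1.14 (SE 0.20, adjusted p = 0.00426), and 1 array of each group held it well above background. The difference was 0.46 (adjusted p = 0.109) when all miRNA probes set the scale, 0.07 (0.852) with quantile normalization and 0.23 (0.243) on its brightest probe, none of them called. miR-329, whose gene lies with that of miR-134 in the Dlk1-Dio3 region, differed by -0.35 (adjusted p = 0.0473).

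**Figure D2:**
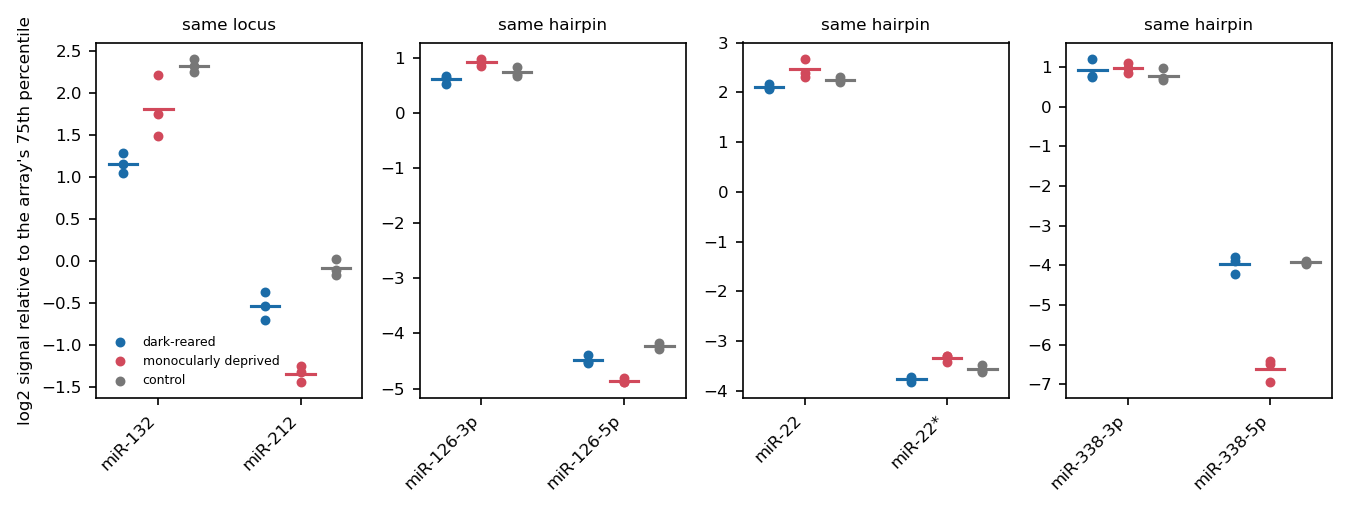
Log2 signal of miRNAs from 1 locus (miR-132 and miR-212) or 1 hairpin (the other panels) on the 3 dark-reared, 3 monocularly deprived and 3 control arrays; points are arrays and bars are group means, and the height of 1 miRNA is not comparable with that of another. miR-132 is lowest and miR-212 intermediate on the dark-reared arrays, and miR-338-5p is lowest on the monocularly deprived arrays while miR-338-3p overlaps.

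Among called bright names the largest differences were higher in dark-reared cortex. miR-690 had levels of 0.65, 0.28 and 0.50 on the dark-reared arrays, -1.06, -1.10 and -1.17 on the monocularly deprived arrays and 1.12, 0.55 and 1.04 on the control arrays. The monocularly deprived arrays stood apart below the others. Its difference of 1.59 (SE 0.16, limma adjusted p = 0.000142), 3.00-fold, was called under all 24 alternatives.

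miR-125a-3p, the minor strand of the hairpin of the abundant neural miR-125a-5p, had levels of -3.56, -3.16 and -3.61 on the dark-reared arrays and -5.63, -5.97 and -5.66 on the monocularly deprived arrays. The groups did not overlap, and the control arrays lay at -3.32, -3.32 and -3.45, among the dark-reared ones. The difference was 2.31 (SE 0.14, adjusted p = 7.81e-06) over its 4 probes. The 1 probe well above background on all 6 arrays gave 1.59 and was called on its own, and the others, well above it on 3 of the 6, gave 2.61 to 3.44. The name was not called with normexp. miR-135a had levels of -2.52, -2.67 and -2.54 on the dark-reared arrays, -3.72, -4.13 and -3.50 on the monocularly deprived arrays and -2.76, -2.58 and -2.38 on the control arrays. Its difference was 1.20 (SE 0.17, adjusted p = 0.00103), 2.31-fold, and was not called when all miRNA probes set the scale (0.53, adjusted p = 0.0551). Its family member miR-135b overlapped between the groups (-0.06, adjusted p = 0.775).

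Of the 8 higher bright calls of largest difference, 5 belong to names of repeated sequence. These, miR-466f-3p, miR-1187, miR-466i, miR-574-5p and miR-467f, were higher in dark-reared cortex, and each varied by over 1 log2 unit among its arrays. miR-466f-3p had levels of -1.74, -2.65 and -4.10 on the dark-reared arrays, -6.28, -5.34 and -6.23 on the monocularly deprived arrays and -2.42, -4.11 and -3.91 on the control arrays. Dark-reared replicate 3 lay near control replicates 2 and 3, while dark-reared replicates 1 and 2 and control replicate 1 lay above them. miR-1187 showed the same order, with -1.56, -2.11 and -3.22 on the dark-reared, -5.15, -4.88 and -5.17 on the monocularly deprived and -1.53, -3.21 and -3.23 on the control arrays. The differences of the 5 names were 3.12 (SE 0.65), 2.77 (SE 0.53), 2.65 (SE 0.50), 2.42 (SE 0.51) and 2.14 (SE 0.38), in the order above, with adjusted p of 0.00944, 0.00708, 0.00641, 0.00956 and 0.00467. The calls held with each array left out in turn, with differences of 2.58 to 3.76 for miR-466f-3p. They held under all 3 other scalings, and none was called with normexp. Of the 4 probes of miR-466f-3p, 1 was well above background on all 6 arrays and gave 2.60. The others, well above it on 3 of the 6, gave 3.14 to 3.89. For miR-1187 and miR-466i 1 of 2 probes was well above background on all 6, with 2.66 and 2.41, and the other gave 2.92 and 3.12. Probes for such names may take up near-identical copies, so which copy was measured is uncertain.

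Of 17 tested names of the miR-297, miR-466, miR-467 and miR-669 group, known in mouse mainly from repeats in an intron of Sfmbt2, 7 were higher, 1 was lower and 9 were not called, with a median of 1.91. Over all names 18.9% were higher, and over the dimmer names, which 9 of the 17 are, 40.3%. The group was taken by name, and RefSeq places miR-466i on chromosome 13 and miR-467f on chromosome 11, outside that locus. The 1 lower name was the dimmer miR-467a.

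**Figure D3:**
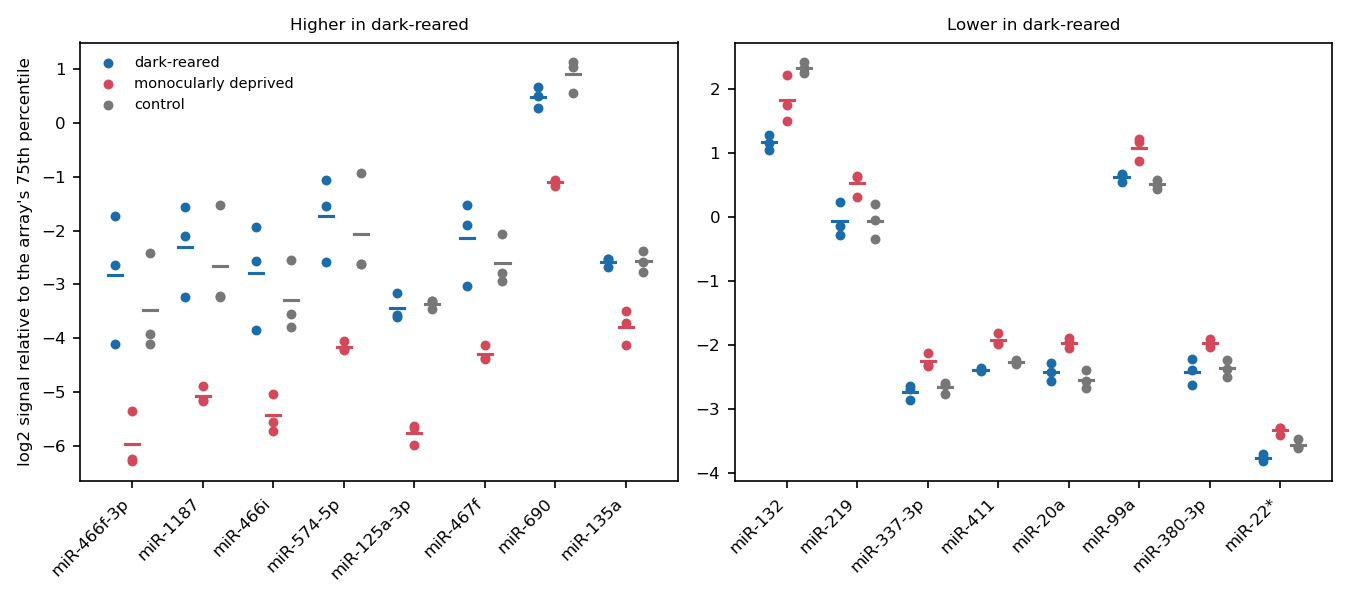
Log2 signal on the 3 dark-reared, 3 monocularly deprived and 3 control arrays for the 8 called bright names of largest difference in each direction; points are arrays and bars group means. The dark-reared and control arrays lie together for most names, and miR-132 is the name whose control arrays are highest while its dark-reared arrays are lowest.

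Lower bright names differed less. miR-219, which promotes the maturation of oligodendrocytes, the myelinating glia, had levels of -0.29, 0.22 and -0.15 on the dark-reared arrays, 0.62, 0.30 and 0.64 on the monocularly deprived arrays and -0.05, -0.34 and 0.19 on the control arrays. Dark-reared replicate 2 and monocularly deprived replicate 2 nearly met. The difference was -0.59 (SE 0.18, limma adjusted p = 0.0423), and leaving out control replicate 1 (adjusted p = 0.0539), dark-reared replicate 1 (0.135) or 3 (0.0923), or monocularly deprived replicate 1 (0.127) or 3 (0.109) ended the call.

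miR-411, of the Dlk1-Dio3 region, had levels of -2.42, -2.40 and -2.37 on the dark-reared arrays, -2.00, -1.82 and -1.98 on the monocularly deprived arrays and -2.25, -2.27 and -2.31 on the control arrays. Its arrays were tight within each group, and the difference of -0.47 (SE 0.08, adjusted p = 0.00321) held with each array left out. So did those of its neighbour miR-337-3p (-0.48, SE 0.10, adjusted p = 0.00901) and of miR-22* (-0.43, SE 0.08, adjusted p = 0.00522), although with normexp these 2 had the opposite sign (0.04 and 0.30, not called).

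miR-99a, of a family known to restrain the mTOR growth pathway, had levels of 0.55, 0.67 and 0.66 on the dark-reared arrays, 1.16, 0.87 and 1.21 on the monocularly deprived arrays and 0.44, 0.50 and 0.57 on the control arrays. It differed by -0.46 (SE 0.10, adjusted p = 0.0139). The family members miR-100 (-0.20, adjusted p = 0.0859) and miR-99b (-0.24, 0.104) were not called. miR-20a differed by -0.46 (SE 0.11, adjusted p = 0.0155) and miR-380-3p by -0.45 (SE 0.12, adjusted p = 0.0275). Leaving out dark-reared replicate 1 or monocularly deprived replicate 1 ended the calls of miR-99a (adjusted p = 0.0542 and 0.0609), miR-20a (0.0569 and 0.0641) and miR-380-3p (0.0654 and 0.065), and that of miR-380-3p was also lost without dark-reared replicate 2 (0.0641) or monocularly deprived replicate 2 (0.0665) or 3 (0.0612).

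Of the dimmer names, 20 of the 31 higher calls had no probe well above background in the monocularly deprived group, so that level is only a bound, and 14 of these gave a fold above 1 against it. The bound sets the dim group, on each array, at the lowest signal well above background or at its own signal where that is higher. An adjusted p given beside a bound, here and below, is that of the limma fit of the levels, floor included. It does not test the bound. miR-295*, of a cluster known from embryonic stem cells, had levels of -4.08, -3.81 and -4.22 on the dark-reared arrays and was at the floor of -7.89 on all 3 monocularly deprived arrays. It was at least 2.83-fold higher, and the control arrays had -4.30, -4.01 and -4.16. The limma fit (adjusted p = 1.9e-07) used the floor for all 3 monocularly deprived arrays, so their spread of 0 was set by it. miR-295* was detected on 0 of these arrays and was tested through the other groups. So were miR-468, also detected on 0, miR-483, on 1, and miR-574-3p and miR-466g, each on 2 monocularly deprived arrays. miR-483, encoded within the Igf2 gene, had -3.47, -3.26 and -3.62 on the dark-reared arrays, -6.91, -7.71 and -7.03 on the monocularly deprived arrays and -3.50, -3.35 and -3.39 on the control arrays. It was at least 4.24-fold higher (adjusted p = 5.43e-06). For miR-295* and miR-483, the dark-reared and control arrays overlapped.

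miR-574-3p was at least 5.49-fold higher (adjusted p = 0.0161) and miR-468 at least 2.43-fold (adjusted p = 0.0449). Both followed the spread of the repeated names, with miR-574-3p at -1.76, -2.90 and -4.57 on the dark-reared arrays, -6.97, -5.78 and -7.13 on the monocularly deprived arrays and -2.40, -4.67 and -4.66 on the control arrays. The call of miR-574-3p was lost without dark-reared replicate 2 (adjusted p = 0.0509) or monocularly deprived replicate 1 (0.0604) or 3 (0.0545). That of miR-468 was lost without control replicate 2 (0.0533), dark-reared replicate 1 (0.135) or 2 (0.1), or monocularly deprived replicate 1 (0.127), 2 (0.0738) or 3 (0.101). miR-466g had 1 monocularly deprived array well above background and differed by 3.56 (SE 0.78, adjusted p = 0.0119).

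The 5 largest lower calls among dimmer names were miR-467a (-0.88, adjusted p = 0.00743), miR-186* (-0.80, 0.0263), miR-18a (-0.66, 0.00921), miR-505 (-0.61, 0.0321) and miR-330 (-0.57, 0.0473). Each had a probe well above background on all 3 monocularly deprived arrays and on 1 dark-reared array. Of these, miR-467a, miR-186* and miR-505 were detected on 1 dark-reared array and miR-330 on 2, so they were not tested through that group. miR-18a, of the miR-17 cluster, had levels of -5.55, -5.49 and -5.11 on the dark-reared arrays, -4.70, -4.75 and -4.71 on the monocularly deprived arrays and -5.65, -5.62 and -5.32 on the control arrays, with no overlap between the deprived groups. All 5 had positive differences with normexp (0.49 to 0.68, not called). The calls of miR-467a and miR-18a held with each array left out. That of miR-186* was lost without dark-reared replicate 1 (adjusted p = 0.0805) or 2 (0.0766) or any 1 monocularly deprived array (0.0593 to 0.0729). That of miR-505 was lost without control replicate 2 (0.0516), dark-reared replicate 1 (0.0805) or 2 (0.0883), or monocularly deprived replicate 1 (0.0957) or 3 (0.0909). miR-330, whose groups overlapped, lost it without control replicate 1 (0.0545) or 2 (0.0658), dark-reared replicate 1 (0.143) or 2 (0.128), or monocularly deprived replicate 1 (0.144) or 2 (0.119).

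Among seed families, the miR-30 family stood higher in dark-reared cortex in 3 of 5 members, all bright, with 0 lower and a median of 0.46 beside -0.03 over all names. Over all names 18.9% were higher, and over the bright names 12%. miR-30c had levels of 1.85, 2.03 and 1.76 on the dark-reared arrays, 1.05, 1.15 and 0.92 on the monocularly deprived arrays and 1.81, 1.86 and 1.86 on the control arrays. Its difference was 0.84 (SE 0.10, limma adjusted p = 0.000338), and its 2 probes gave 1.72 and 0.66. miR-30b differed by 0.48 (adjusted p = 0.00743) and miR-30d by 0.46 (adjusted p = 0.0321). With scaling on all miRNA probes miR-30c had 0.16, miR-30b -0.20 and miR-30d -0.22, none called, while the family median was 0.48 above that of all names. Without scaling none of the 3 was called either (0.85, 0.49 and 0.47 in that order, adjusted p = 0.259, 0.96 and 0.967). The call of miR-30d was lost without dark-reared replicate 1 (adjusted p = 0.0561) or 2 (0.089) or monocularly deprived replicate 1 (0.0997) or 3 (0.091).

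miR-9, an abundant regulator of neuronal differentiation, had levels of 3.12, 3.27 and 3.08 on the dark-reared arrays, 2.81, 2.75 and 2.77 on the monocularly deprived arrays and 3.31, 3.33 and 3.21 on the control arrays. It was 1.30-fold higher (0.38, SE 0.08, adjusted p = 0.00956), and had the opposite sign with scaling on all miRNA probes (-0.30, not called). miR-222 differed by 0.51 (SE 0.10, adjusted p = 0.00634; -0.17 with scaling on all miRNA probes), and miR-221, its neighbour on chromosome X with the same seed, by -0.13 (adjusted p = 0.237). miR-383 differed by 0.46 (adjusted p = 0.0281; -0.21 with that scaling). Its call was lost without any 1 dark-reared array (adjusted p = 0.0552 to 0.0711) and without monocularly deprived replicate 1 (0.087) or 3 (0.0739).

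The members of several lists lay mostly below 0, and 3 of these lists are described here and in the next paragraph. Others were the let-7 family (8 of 9), the miR-34 family (3 of 3) and the erythrocyte names (3 of 3). Of 43 tested miRNAs of the imprinted Dlk1-Dio3 region, a neuronal cluster expressed from the maternal chromosome, 9 bright names were lower, 2 dimmer names were higher and 32 were not called. Over all names 9.75% were lower and 18.9% higher, and over the bright names 9.96% and 12%. The list leaves out some minor strands of the region, among them the bright miR-431*, called higher. The median was -0.22, and 37 of 43 lay below 0, beside 170 of all 318 names. The lower names beyond miR-411, miR-337-3p, miR-380-3p and miR-329 were miR-127 (-0.23), miR-154 (-0.32), miR-323-3p (-0.37), miR-409-3p (-0.31) and miR-434-5p (-0.29), named after their values were seen. All 5 calls, and that of miR-329, were lost without dark-reared replicate 1 (adjusted p = 0.086 to 0.109) and without dark-reared replicate 2 (0.0558 to 0.128). Without monocularly deprived replicate 1, all but miR-154 were lost (0.0644 to 0.111). Over the 9 fits that left out 1 array, the call was lost in 8 for miR-323-3p, in 7 for miR-127, miR-329 and miR-434-5p, in 3 for miR-409-3p and in 2 for miR-154, at adjusted p of up to 0.128.

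Of 10 tested miRNAs of the miR-17 to miR-92 cluster and its paralogs, known as promoters of cell proliferation, 5 were lower, 1 was higher and 4 were not called, with a median of -0.33, beside 9.75% lower, 18.9% higher and a median of -0.03 over all names. miR-93 differed by -0.36 (SE 0.07, adjusted p = 0.00901), with levels of -2.50, -2.36 and -2.42 on the dark-reared arrays, -2.01, -2.08 and -2.12 on the monocularly deprived arrays and -2.48, -2.43 and -2.43 on the control arrays. miR-20b (-0.38) and miR-19b (-0.30) were the others beside miR-20a and miR-18a, and the higher name was the dimmer miR-92b, at the floor on all 3 monocularly deprived arrays and well above background on 2 dark-reared arrays, for which no fold can be given. Leaving out dark-reared replicate 1 or monocularly deprived replicate 1 ended the calls of miR-20b (adjusted p = 0.0577 and 0.0705) and miR-19b (0.143 and 0.121), and miR-19b also lost its call without control replicate 2, dark-reared replicate 2 or 3, or monocularly deprived replicate 2 or 3 (0.0545 to 0.11). miR-92b lost its call without dark-reared replicate 2 (0.0812) or 3 (0.066) or any 1 monocularly deprived array (0.0704 to 0.0793). The names miR-20b, miR-19b and miR-92b were chosen after their values were seen. In the miR-99 and miR-100 family 1 of 3 was lower, with a median of -0.24.

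**Figure D4:**
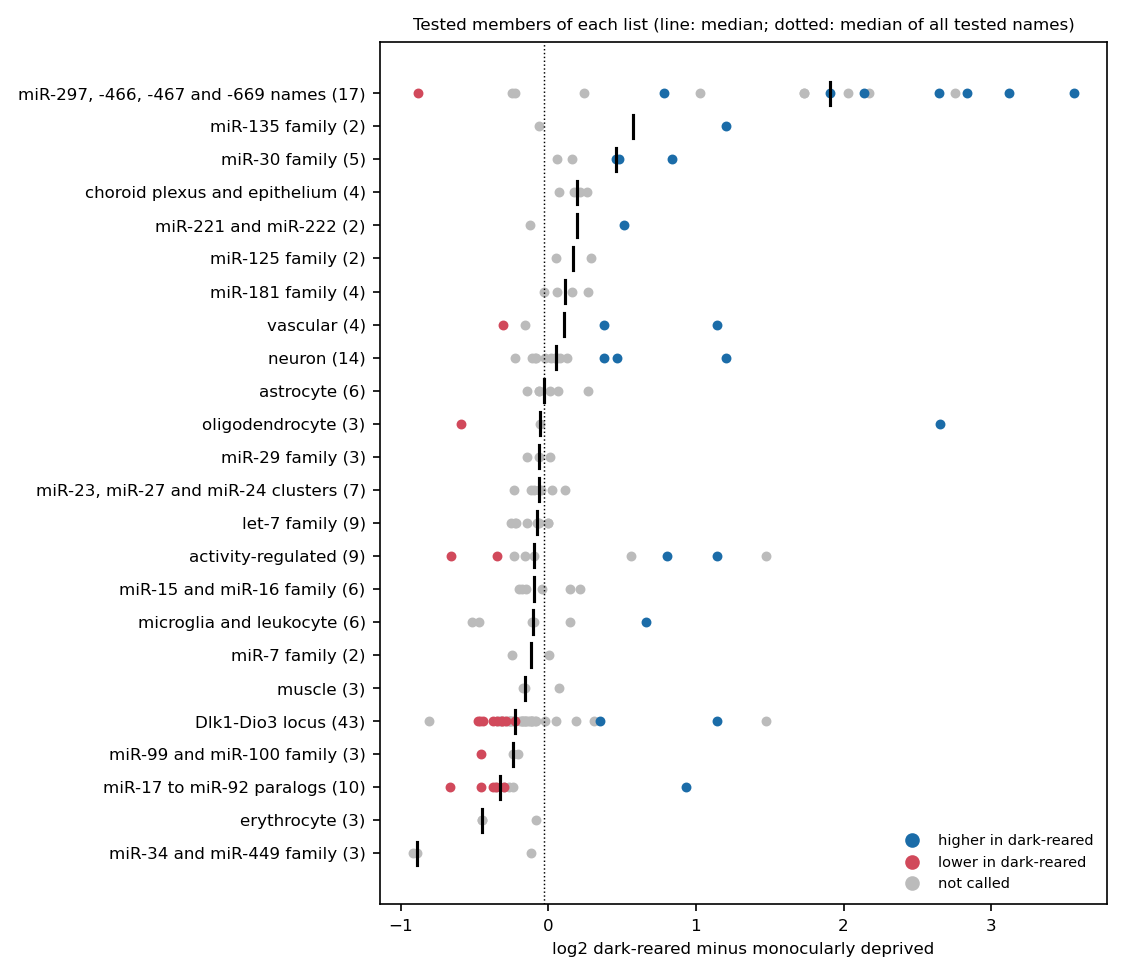
Log2 difference, dark-reared minus monocularly deprived, of the tested members of 24 lists; each point is 1 miRNA coloured by its limma call, black lines are list medians, and the dotted line is the median of all 318 names (-0.03). The median of the miR-30 family lies at 0.46, those of the Dlk1-Dio3 and miR-17 to miR-92 lists at -0.22 and -0.33.

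The strands of a hairpin were set beside each other. Of 32 hairpins with both strands bright, 2 had both strands called, 12 had 1 called and 18 had neither. Over all bright names 22% were called, and a call on only 1 strand is not by itself a difference between strands. miR-22 (-0.35, adjusted p = 0.0391) and miR-22* (-0.43) were both lower. miR-22 was named after its values were seen. Its call was lost when any 1 control array, any 1 dark-reared array or monocularly deprived replicate 1 was left out (adjusted p = 0.0505 to 0.117). The strands of miR-126, a miRNA of endothelial cells encoded in Egfl7, were called in opposite directions. miR-126-3p, the main strand, had levels of 0.52, 0.66 and 0.63 on the dark-reared arrays and 0.91, 0.98 and 0.85 on the monocularly deprived arrays. The difference was -0.31 (SE 0.08, adjusted p = 0.0261). miR-126-5p had -4.53, -4.51 and -4.39 on the dark-reared arrays and -4.82, -4.88 and -4.88 on the monocularly deprived arrays, a difference of 0.38 (SE 0.07, adjusted p = 0.00743). Neither strand overlapped between the groups.

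The direction of miR-126-5p depended on the processing: it was -0.30 with scaling on all miRNA probes and -0.22 with quantile normalization, neither called, and its 2 probes gave 0.21 and 1.13, of which the first was well above background on all 6 arrays and the second on 1. On the first probe alone miR-126-5p was not called (limma adjusted p = 0.0632), nor was it without scaling (0.39, 0.992). The call of miR-126-3p was lost without dark-reared replicate 1 (adjusted p = 0.101) or monocularly deprived replicate 1 (0.0793). The within-array change of miR-126-5p relative to miR-126-3p was 0.69, with no overlap. Including miR-212 with miR-132, 15 of the 33 within-array ratios did not overlap between the groups, a share of 45.5%, beside 46.5% of all 318 names (148) by their levels. The exact permutation p of each of the 15 was 0.1 (adjusted p = 0.22).

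Of the 12 hairpins with both strands bright and 1 of them called, 6 had the called strand higher and 6 had it lower in dark-reared cortex. The log2 difference was 2.31 for miR-125a-3p and 0.29 for miR-125a-5p (adjusted p = 0.196), and their within-array ratio changed by 2.02. On the lower side, miR-411 and miR-154 were called and miR-411* (-0.08) and miR-154* (-0.19) were not, and miR-337-3p was called while miR-337-5p (-0.08) was not. The within-array ratio of miR-154* to miR-154 changed by 0.13 and overlapped between the groups. Those of miR-411* to miR-411 (0.39) and miR-337-3p to miR-337-5p (-0.39) did not overlap. miR-338-5p, a dimmer name from an intron of the kinase gene Aatk, had levels of -3.80, -3.89 and -4.21 on the dark-reared arrays, -6.41, -6.95 and -6.50 on the monocularly deprived arrays and -3.95, -3.93 and -3.88 on the control arrays. It was well above background on 2 of the 3 monocularly deprived arrays, and its difference was 2.65 (SE 0.16, adjusted p = 7.11e-06), while the bright miR-338-3p, the strand known from oligodendrocytes, overlapped (-0.06, adjusted p = 0.779).

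Further pairs were named after their values were seen. let-7d* differed by 1.05 (adjusted p = 0.0343) and let-7d by -0.07. miR-138* differed by 0.48 (adjusted p = 0.0191) and miR-138 by 0.05, miR-324-3p by 0.42 (0.0152) and miR-324-5p by -0.08, and miR-431* by 0.39 (0.0362) and miR-431 by -0.15. With scaling on all miRNA probes miR-138*, miR-324-3p and miR-431* had the opposite sign and let-7d* was at 0.37 (adjusted p = 0.143). With quantile normalization let-7d* was at 0.15 (adjusted p = 0.64), miR-138* at 0.013, miR-324-3p at 0.22 and miR-431* at -0.48, none of them called. The 1 probe well above background on all 6 arrays gave -0.16 for miR-431*, 0.30 for miR-138* (neither called) and 0.65 for let-7d*, and the 2 such probes of miR-324-3p gave 1.25 and -0.03. Among dimmer names, miR-335-3p was at least 2.49-fold higher (adjusted p = 2.27e-05) beside 0.24 for miR-335-5p, and miR-125b* was at least 1.30-fold higher (adjusted p = 1.23e-05) beside 0.05 for miR-125b-5p. In the miR-9 hairpin, miR-9 was called (0.38) and miR-9* was not (-0.09), with a change of 0.47 in their ratio. Over the 9 fits that left out 1 array, the call was lost in 6 for miR-431*, in 5 for let-7d*, in 3 for miR-324-3p and in 2 for miR-138*. The highest adjusted p was 0.1 for miR-431* (without dark-reared replicate 2), 0.096 for let-7d* (without monocularly deprived replicate 3), 0.056 for miR-324-3p (without monocularly deprived replicate 1) and 0.0563 for miR-138* (without dark-reared replicate 2).

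Markers of the labelled tissue were present in both groups. The counts of calls here and in the next paragraph stand beside 18.9% higher and 9.75% lower over all 318 names. Neuronal miR-124 had levels of 4.54, 4.63 and 4.44 on the dark-reared arrays and 4.45, 4.73 and 4.37 on the monocularly deprived arrays, which overlapped (0.02, adjusted p = 0.886). All 14 tested names of the neuronal list were bright, 3 were higher (miR-135a, miR-9 and miR-383) and 0 lower, and the summed linear level was 89.3 to 90.0 on the dark-reared, 78.2 to 106.9 on the monocularly deprived and 90.9 to 92.8 on the control arrays. None of the 6 astrocyte names was called, with miR-29a at -0.14, miR-181a at 0.27 and miR-26a at 0.07, and their sum was 42.2 to 43.6 on the dark-reared and 40.7 to 49.6 on the monocularly deprived arrays. Of 3 oligodendrocyte names 1 was higher (miR-338-5p) and 1 lower (miR-219), and the sum was 2.57 to 3.55 on the dark-reared and 3.05 to 3.70 on the monocularly deprived arrays.

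Among markers of other cells, 1 of 6 microglia and leukocyte names was higher, miR-150, known from lymphocytes (0.66, SE 0.11, adjusted p = 0.00367; -0.02 with scaling on all miRNA probes). miR-142-5p (-0.52, adjusted p = 0.273) and miR-146b (0.15, 0.316) were not called, and the list's sum was 0.53 to 0.54 on the dark-reared and 0.48 to 0.54 on the monocularly deprived arrays. Of 4 vascular names 2 were higher (miR-126-5p and the dimmer miR-145, 1.15, adjusted p = 0.00999) and miR-126-3p was lower, and the list had a sum of 1.60 to 1.74 on the dark-reared and 1.94 to 2.11 on the monocularly deprived arrays. miR-145 was well above background on 1 dark-reared and 1 monocularly deprived array, and was not called when all miRNA probes set the scale (0.47, adjusted p = 0.122) or with quantile normalization (0.36, 0.297). None of 3 erythrocyte names was called, with miR-451 at -0.45 (adjusted p = 0.258), miR-144 at -0.45 and miR-486 at -0.08. Their sum was 1.44 to 2.62 on the dark-reared and 2.69 to 3.00 on the monocularly deprived arrays. None of 4 choroid plexus and epithelial names was called (miR-200b 0.26, miR-204 0.21, miR-429 0.18), with a sum of 0.93 to 1.23 on the dark-reared and 0.85 to 0.92 on the monocularly deprived arrays. The vascular and erythrocyte sums (lower in dark-reared cortex) and the choroid plexus sum (higher) did not overlap between these groups. By single names, 46.5% of all 318 (148) did not overlap. None of 3 muscle names was called (miR-133a -0.17, miR-1 -0.16, miR-133b 0.08), and their sum was 0.10 to 0.14 on the dark-reared and 0.11 to 0.13 on the monocularly deprived arrays. The part of cell mixture in the differences was not tested.

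The remaining families held no call beyond those given. In the let-7 family 0 of 9 were called, with a median of -0.08 and let-7c at -0.25 (adjusted p = 0.155), miR-98 at -0.22 (0.0614) and let-7b at -0.22 (0.258). The miR-34 family had a median of -0.89 over 3 names, and miR-34b-5p (-0.89, adjusted p = 0.053), miR-34c (-0.91, 0.0673) and miR-34a (-0.12, 0.658) overlapped between the groups, with monocularly deprived replicate 2 of miR-34c at -4.57 against -3.41 and -3.47 for the others. Without that array miR-34b-5p (-1.22, adjusted p = 0.00713) and miR-34c (-1.29, 0.00714) were called lower, as they were when all miRNA probes set the scale (0.00131 and 0.0015) and with quantile normalization (0.0151 and 0.0243). The miR-29 family had 0 of 3 called (miR-29c -0.06, miR-29b 0.01), the miR-181 family 0 of 4 (miR-181d 0.16, miR-181c 0.06), the miR-15 and miR-16 family 0 of 6 (miR-15b -0.20, miR-322 -0.18, miR-15a -0.15), the clusters of miR-23, of miR-27 and of miR-24 had 0 of 7 (miR-24-1* -0.23, miR-27b -0.10, miR-24 -0.12), the miR-7 family 0 of 2 (miR-7a -0.24, miR-7b 0.01) and the miR-125 family 0 of 2.

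Called names differed from the rest in their probes. The longest probe of a name had a median GC content of 56.2% over the 60 higher calls, 50% over the 31 lower calls and 47.4% over the 227 names not called, and median lengths of 15, 19 and 18 bases in that order. Higher calls were also dimmer, with a median level of -4.11 on the dark-reared and -6.10 on the monocularly deprived arrays, against -2.43 and -2.07 for lower calls. Over all 318 names the rank correlation of the difference with probe GC content was 0.20 and with level -0.26, given as descriptions across names that share arrays. Within the bright names they were 0.16 and -0.14, and within the dimmer names 0.18 and 0.17, so the sign for level differed between the sets. The part of probe composition in the differences was not tested.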

How the data were processed

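Per the file headers, the deposited intensity values were made with Agilent Feature Extraction 10.1.1.1, which subtracted background, and they carry no scaling between arrays by the authors. Each array holds 13715 spots, 13000 of them for miRNAs and 715 controls. The processed intensity was averaged over spots (367 to 638 outlier spots per array left out) and, linearly, over the probes of a name. It was divided by the array's 75th percentile over 433 probes (401 to 1022 units), floored at the 1st percentile of detected names (0.00422, log2 -7.89), and log2 was taken. Names detected on every array of 1 or more groups were tested. A model of 3 group means over 9 arrays was fitted with limma 3.58.1 (R 4.3.3), with 6 residual and 2.21 prior degrees of freedom and Benjamini-Hochberg adjustment over 318 names. The fit was tested on simulated data.

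Named were the 8 largest bright and 5 largest dimmer calls per direction, 6 fixed miRNAs and the 3 of smallest p in each of 24 lists. Further names are marked as chosen after their values were seen. The members and lists were chosen with earlier results of these data known. Slide could not be a block. The number of arrays limits the precision.

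Alternatives changed scaling, background, probe summary, source of values, filter, floor, samples, test, block and replicates.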

Additional observations from a re-analysis of the deposited data

How the results depend on the processing

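The alternatives moved the counts of calls far. Calls numbered 247 with scaling on all miRNA probes, 37 without scaling, 1 with normexp, 3 with normexp and spots of bright background left out (an alternative added after the data were seen), and 53 when the bright names alone were fitted, against 91. Higher calls numbered 35 with scaling on all miRNA probes, 35 with quantile normalization, 37 without scaling, 29 in the fit of bright names, 1 with normexp and 3 with the added form, against 60. Lower calls numbered 212, 65, 0 without scaling and with both forms of normexp, 19 with the total gene signal, 19 with no filter and 14 in the 6 arrays alone, against 31. Bright calls numbered 195, 11 without scaling, 1 and 3 with normexp, 33 in the 6 arrays alone and 36 with no filter, against 53 (higher 9, 18 with quantile normalization, 11, 1, 3, 19 with no filter and 19 with the brightest probe, against 29; lower 186, 38, 0, 0, 0, 11 and 16 with the total gene signal, against 24). Dimmer calls numbered 0 with both forms of normexp and 26 without scaling, against 38. With each array left out, calls ranged from 49 to 91 (higher 40 to 68, lower 8 to 30, bright 25 to 54, bright higher 18 to 32, bright lower 6 to 24, dimmer 24 to 43). Deviations of same-numbered arrays of the deprived groups correlated at r = -0.385, -0.274 and 0.137 across names. The names share arrays and a group has only 3, so these values cannot tell if the numbers pair the arrays. The labels do not say. With the replicate block 87 names were called, 63 higher and 24 lower. The cause of these shifts was not tested.

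Of the named miRNAs, these had the opposite sign. With scaling on all miRNA probes: miR-124 -0.66, miR-9 -0.30, miR-383 -0.21, miR-181a -0.41, miR-26a -0.61, miR-150 -0.016, miR-146b -0.53, miR-126-5p -0.30, miR-200b -0.42, miR-204 -0.47, miR-429 -0.50, miR-133b -0.60, miR-125a-5p -0.39, miR-125b-5p -0.63, miR-29b -0.67, miR-30b -0.20, miR-30d -0.22, miR-181d -0.51, miR-181c -0.62, miR-222 -0.17, miR-7b -0.67, miR-138 -0.62, miR-138* -0.20, miR-431* -0.28, miR-324-3p -0.25 and miR-335-5p -0.44. With quantile normalization: miR-124 -0.090, miR-29a 0.060, miR-26a -0.051, miR-146b -0.055, miR-126-5p -0.22, miR-200b -0.35, miR-429 -0.47, miR-133b -0.50, miR-24 0.0081 and miR-431* -0.48. With normexp: miR-337-3p 0.039, miR-22* 0.30, miR-467a 0.54, miR-186* 0.67, miR-18a 0.49, miR-505 0.62, miR-330 0.68, miR-124 -0.10, miR-26a -0.047, miR-142-5p 0.58, miR-144 0.25, miR-486 0.51, miR-133a 0.59, miR-1 0.49, miR-125b-5p -0.071, miR-93 0.057, miR-34b-5p 0.17, miR-34c 0.27, miR-29b -0.11, miR-322 0.15, miR-24-1* 0.49, miR-135b 0.18, miR-431 0.45, miR-324-5p 0.045, miR-20b 0.32, miR-323-3p 0.022, miR-409-3p 0.17, miR-362-3p 0.24, miR-500 0.092, miR-532-5p 0.26 and miR-434-5p 0.00086. With the brightest probe: miR-125b-5p -0.019, miR-29b -0.0053, miR-7b -0.012, miR-431* -0.16 (also with bright probes only) and miR-324-3p -0.029. With the total gene signal: miR-338-3p 0.0037. With 1 array left out, signs turned for names that were not called: miR-124 (-0.050 to 0.13), miR-26a (-0.016 to 0.13), miR-338-3p (-0.20 to 0.026), miR-486 (-0.18 to 0.0066), miR-133b (-0.23 to 0.27), miR-34a (-0.29 to 0.042), miR-29c (-0.15 to 0.086), miR-29b (-0.052 to 0.12), miR-7b (-0.060 to 0.076), miR-135b (-0.20 to 0.12), let-7d (-0.13 to 0.023) and miR-138 (-0.044 to 0.11).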

Other observations

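A pair of genomic clusters not described above held several calls, and their miRNAs are named after their values were seen. The cluster of miR-500 and miR-532 lies on chromosome X. Of 5 tested names placed there by sequence, 2 were lower and 0 higher. Over all 318 names 9.75% were lower and 18.9% higher. miR-362-5p (-0.50), miR-532-3p (-0.28) and miR-188-5p (0.56) were not called. miR-532-5p, which had no matched sequence and is placed there by name, had log2 levels of -3.78, -3.63 and -3.67 on the dark-reared arrays, -3.25, -3.32 and -3.24 on the monocularly deprived arrays and -3.64, -3.53 and -3.59 on the control arrays. Its groups did not overlap, and its difference of -0.43 (SE 0.07, limma adjusted p = 0.00467) was called with each array left out. miR-362-3p (-0.38, adjusted p = 0.0288) and miR-500 (-0.28, adjusted p = 0.0443) were also lower, and their calls were lost in 6 and 7 of the 9 fits without 1 array (adjusted p up to 0.0871 without monocularly deprived replicate 1 and 0.14 without dark-reared replicate 1). With normexp all 3 had the opposite sign, and none was called.

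In the miR-290 to miR-295 cluster of chromosome 7, known from embryonic stem cells, the 2 tested names were both dimmer and higher in dark-reared cortex. Of all dimmer names, 40.3% were higher. miR-290-5p had levels of -4.86, -4.65 and -4.99 on the dark-reared arrays, -6.78, -7.11 and -6.72 on the monocularly deprived arrays and -5.08, -4.70 and -4.94 on the control arrays. It was at least 1.63-fold higher (adjusted p = 1.88e-05), with no monocularly deprived array well above background, as for miR-295*. The dark-reared and control arrays overlapped for both.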
